A study of Mus musculus with 8 samples.

Results

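The common gamma chain cytokine receptors were followed as 7 genes (Il2ra, Il2rb, Il2rg, Il4ra, Il7r, Il9r and Il15ra) of the 25078 gene rows in the deposited tables. They were chosen as the genes of the shared gamma chain and of the receptor chains that pair with it to bind IL-2, IL-4, IL-7, IL-9 and IL-15. Messenger RNA was measured in T cells of the donor, sorted from recipient spleen at day 6 of allogeneic hematopoietic cell transplantation (HCT). All T cell donors were C57BL/6 mice, either wild type (WT) or Stat3 fl/fl CD4-Cre (STAT3KO), in which a Cre recombinase driven by the Cd4 gene's own control elements deletes floxed Stat3 exons in the CD4 and also the CD8 lineage, since both pass through a stage with Cd4 expression. All recipients were lethally irradiated WT BALB/c mice, and all received T cell-depleted bone marrow from WT C57BL/6 donors along with the T cells. Donor T cells were recognized by H-2Kb and the T cell receptor beta chain, and CD4 and CD8 cells were sorted apart, which gave 4 groups by lineage and donor genotype with 2 libraries each, numbered replicate 1 and 2 by the labels. Per the study's methods each library pooled cells of several recipients, so p-values measure the spread between pools. The ages of the mice are not given in the sources used here.

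Cytokine receptors of this family have a private chain that gives specificity and the shared gamma chain, encoded by Il2rg, that is needed for signaling. Jak1 binds the private chain and Jak3 the gamma chain, and the activated kinases phosphorylate STAT5 for IL-2, IL-7, IL-9 and IL-15, STAT6 for IL-4 and mainly STAT3 for IL-21. In T cells, IL-2 and IL-15 drive expansion and effector function, IL-7 sustains naive and memory cells, and IL-4 directs helper T cell differentiation. Il2rb encodes the beta chain (CD122) that IL-2 and IL-15 share, while Il2ra (CD25) and Il15ra encode the alpha chains that raise affinity for one cytokine each.

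The libraries held between 20171396 and 23282757 counts, and a gene with 0 counts could still be present at up to 3 counts, or 0.129 to 0.149 CPM (counts relative to the total of the library), by counting error alone. Stat3 checked the labels, with 0.324 times the WT level in STAT3KO CD4 and 0.303 times in STAT3KO CD8 T cells (edgeR quasi-likelihood test, adjusted p = 0.000753 and 0.00536). Cd4 lay between 1403 and 1597 CPM in the CD4 libraries and between 1.03 and 8.05 CPM in the CD8 libraries, and Cd8a between 1.67 and 15.9 and between 805 and 1016 CPM. In each group replicate 2 held more of the other lineage's gene than replicate 1, and more of 4 macrophage genes (Lyz2, Csf1r, Adgre1 and Cd14). Cd68 and Itgam, the remaining markers of that list, did not go this way in every group. Cd68 was lower in replicate 2 of STAT3KO CD8 only (44.0 and 39.9 CPM). Itgam was lower in replicate 2 of every group except STAT3KO CD4 (36.7 and 22.9 CPM in WT CD4). Csf1r was between 0.558 and 2.51 CPM in the replicates numbered 1 and between 11.8 and 18.7 CPM in those numbered 2. The B cell markers summed to 96.1 to 170 CPM in the CD4 and 37.5 to 54.7 CPM in the CD8 libraries, most of it Cd22. Among them Cd79b was between 11.9 and 12.8 CPM in the CD8 libraries, while Ms4a1 stayed at or below 0.147 CPM in all 8 libraries. The summed markers of dendritic cells (0.663 to 1.82 CPM), erythroid cells (0.379 to 5.65), mast cells and basophils (1.99 to 8.47) and neutrophils (3.24 to 21.8) were low throughout, and Ncr1, 1 of the 4 natural killer cell markers, was at or below 0.246 CPM. That list summed to 88.0 to 116 CPM in CD4 and 530 to 1060 CPM in CD8 libraries, most of it Gzma, a granzyme gene that killer T cells also use, with Klrb1c between 13.9 and 26.2 CPM in all 8.

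Levels between genes were compared only as deposited RPKM (reads scaled by library size and divided by exon length). The gamma chain, the beta chain and the IL-7 receptor made up the bulk of the receptor messages, with between 93.9% and 96.7% of the summed RPKM of the 7 genes in every library. Il2rg (chromosome X, 101264385 to 101268255, minus strand, mm10) was at 446 and 442 RPKM in CD4 cells of WT donors and at 464 and 513 RPKM in those of STAT3KO donors. In the CD8 libraries Il2rg was at 380 and 390 RPKM in WT and at 337 and 356 RPKM in STAT3KO. The gamma chain was therefore among the 2 highest members in every group, and its highest library held 1.52 times the level of its lowest.

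The same ratio was 1.49 for Il15ra, 2.15 for Il2rb, 2.37 for Il2ra, 3.38 for Il4ra and 3.42 for Il7r. Il2rb (chromosome 15, 78480549 to 78495066, minus strand) was at 302 and 275 RPKM in the CD4 cells of WT donors and at 526 and 537 in those of STAT3KO donors, while the CD8 cells held 505 and 477 (WT) and 536 and 592 (STAT3KO). The WT CD4 libraries thus stood below the other 6. Il7r (chromosome 15, 9506159 to 9529876, minus strand), whose chain also serves the receptor for thymic stromal lymphopoietin, was at 178 and 221 RPKM in the CD4 cells of WT donors and at 306 and 285 in those of STAT3KO donors, while the CD8 cells held 89.6 and 118 (WT) and 163 and 138 (STAT3KO). Each STAT3KO pair lay above the WT pair of its lineage, and every CD4 library lay above every CD8 library.

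Il4ra (chromosome 7, 125552271 to 125579474, plus strand), whose chain binds IL-4 and serves IL-13 as well, had its order of genotypes the other way round. It was at 26.5 and 34.9 RPKM in the CD4 cells of WT donors and at 14.3 and 14.3 in those of STAT3KO donors, while the CD8 cells held 15.8 and 20.4 (WT) and 11.0 and 10.3 (STAT3KO), so that each STAT3KO pair lay below its WT pair. Il2ra (chromosome 2, 11642792 to 11693194, plus strand) was at 21.0 and 15.7 RPKM in the CD4 cells of WT donors and at 21.7 and 20.7 in those of STAT3KO donors, while the CD8 cells held 37.2 and 31.5 (WT) and 26.6 and 29.6 (STAT3KO). The CD8 libraries were above the CD4 libraries in either genotype, and the CD4 genotypes overlapped on this scale.

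Il15ra (chromosome 2, 11705293 to 11733985, plus strand) begins 12098 bases beyond the end of Il2ra on the same strand. It was at 7.20 and 7.26 RPKM in the CD4 cells of WT donors and at 10.8 and 10.0 in those of STAT3KO donors, while the CD8 cells held 10.0 and 10.4 (WT) and 9.57 and 8.50 (STAT3KO). Here too the WT CD4 libraries were the lowest of the 8. Il9r (chromosome 11, 32188997 to 32200279, minus strand), the receptor of the mast cell and T cell growth factor IL-9, was near the limit of detection, with 19 and 16 counts in the CD4 cells of WT donors and 25 and 35 in those of STAT3KO donors, against 1 and 0 (WT) and 1 and 2 (STAT3KO) in the CD8 cells. It entered the tests through its CD4 counts alone.

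**Figure D1:**
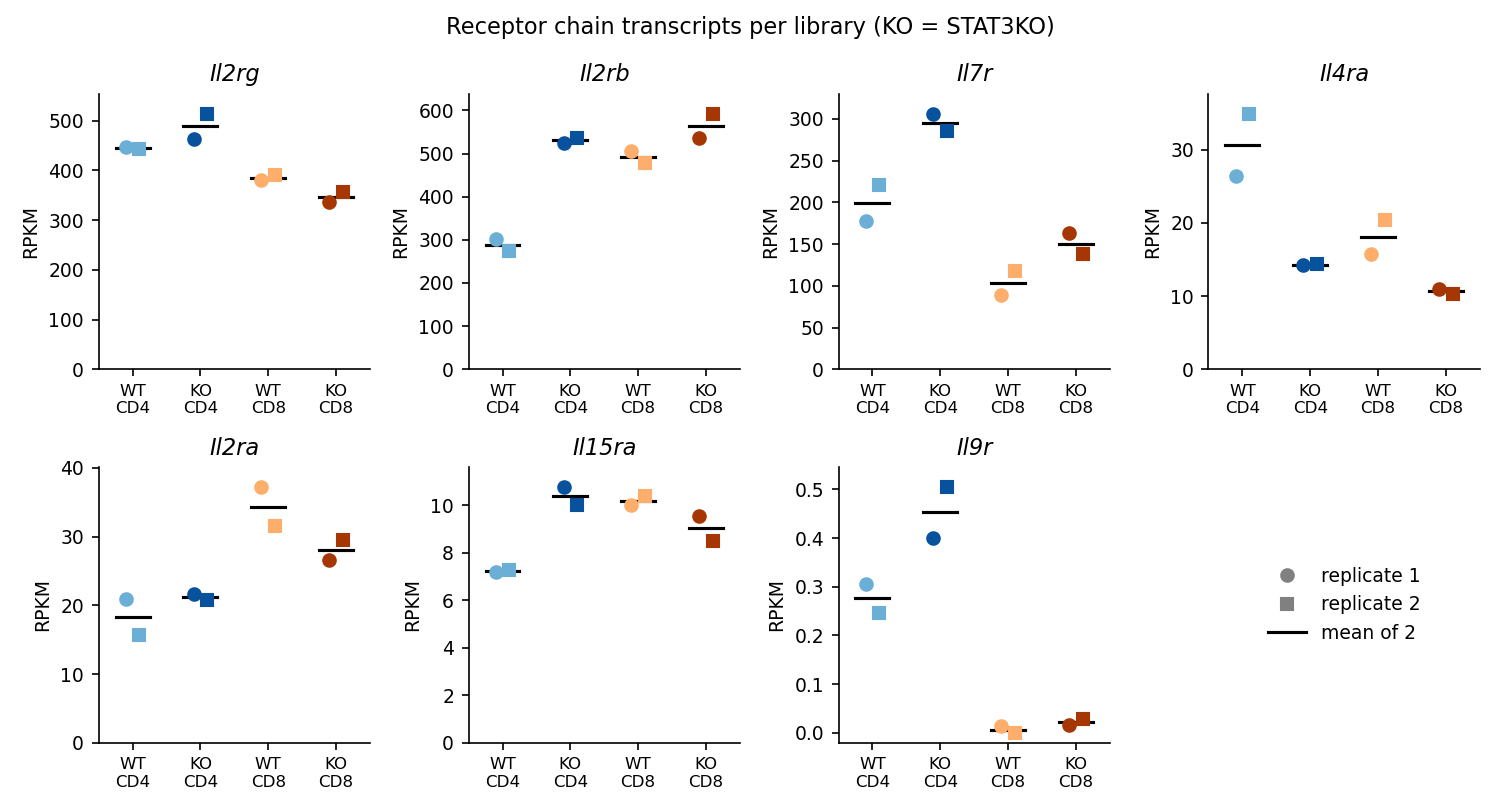
Deposited RPKM (vertical axes, linear) of the 7 receptor chain genes in each library, with 1 panel per gene, circles for replicate 1, squares for replicate 2 and a line at the mean of 2. Il2rb and Il15ra had their lowest values in WT CD4 T cells (275 to 302 and 7.20 to 7.26 RPKM), Il4ra was lower and Il7r higher in each STAT3KO pair, and Il9r was at or below 0.0285 RPKM in the CD8 libraries.

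By group mean, the WT CD4 order per length was Il2rg (444 ± 2.86 RPKM, SD, n = 2), Il2rb, Il7r, Il4ra, Il2ra, Il15ra and Il9r. In the other groups Il2rb came first (STAT3KO CD4 531 ± 7.99, WT CD8 491 ± 20.0 and STAT3KO CD8 564 ± 39.2, SD, n = 2) and Il2rg second, and Il2ra stood above Il4ra. No neighbours in these orders had overlapping libraries within a group. With 2 libraries a group this is a description without a test.

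The balance between chains differed between groups as well. The ratio of Il2rb to Il2rg in RPKM was 0.678 and 0.622 in CD4 cells of WT donors and 1.13 and 1.05 in those of STAT3KO donors, and the CD8 cells had 1.33 and 1.22 (WT) and 1.59 and 1.66 (STAT3KO). The WT CD4 libraries were the only ones with less beta than gamma chain message. The ratio of Il7r to Il4ra was 6.73 and 6.33 (CD4) and 5.67 and 5.76 (CD8) for WT donors, as against 21.4 and 19.9 (CD4) and 14.8 and 13.4 (CD8) for STAT3KO donors. The STAT3KO libraries of either lineage all lay above the 4 WT libraries. These ratios were not tested, and because the libraries are bulk samples, a change in the RNA per cell and a change in the share of cells that express a gene cannot be told apart.

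**Figure D2:**
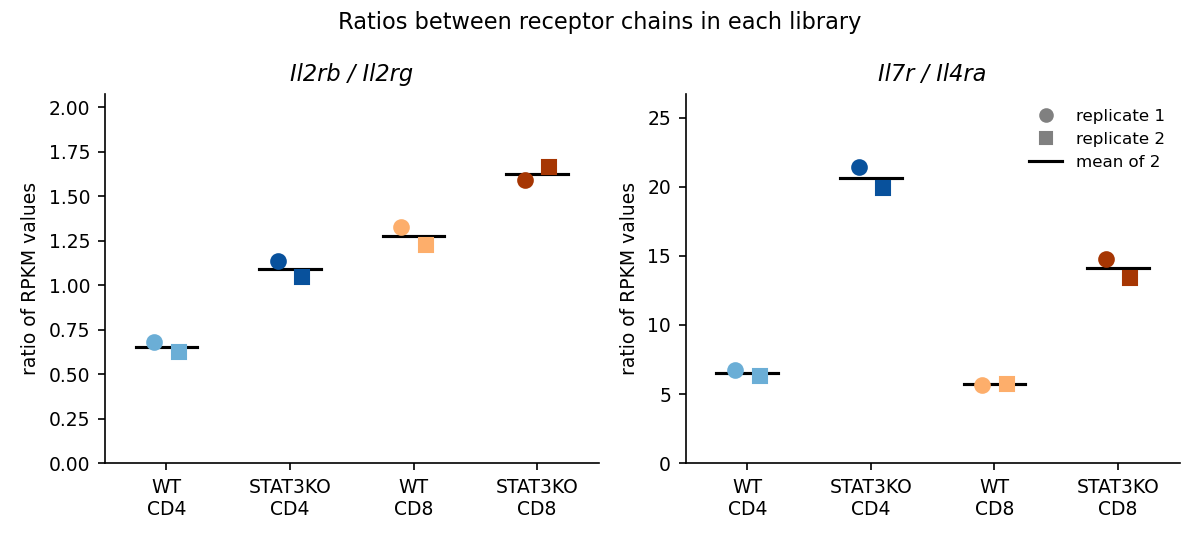
Ratio of Il2rb to Il2rg (left) and of Il7r to Il4ra (right) in deposited RPKM for each library, with circles for replicate 1, squares for replicate 2 and a line at the mean of 2. The left ratio was 0.622 to 0.678 in WT CD4 and above 1 in the other groups, and the right ratio was 5.67 to 6.73 in WT and 13.4 to 21.4 in STAT3KO libraries.

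Sequence before the annotated start was available for 6 of the 7 members in the RefSeq promoter table (build GRCm38.p6), in which Il15ra has 2 entries and Il2rb has none. Shown are Il7r and Il4ra, whose STAT3KO fold changes had opposite signs in both lineages, and Il15ra, which rose in CD4 T cells. Each is written from 5′ to 3′ along the gene, Il7r on the minus strand and the other two on the plus strand, and ends before the first exon of a protein-coding transcript in GENCODE M21. The Il7r stretch lies within the span of a longer non-coding transcript model of the gene and shares 86 bases, at its 5′ end, with the first exon of that model. Capitals mark matches to the motifs searched.

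Il7r, chr15:9529877-9530126: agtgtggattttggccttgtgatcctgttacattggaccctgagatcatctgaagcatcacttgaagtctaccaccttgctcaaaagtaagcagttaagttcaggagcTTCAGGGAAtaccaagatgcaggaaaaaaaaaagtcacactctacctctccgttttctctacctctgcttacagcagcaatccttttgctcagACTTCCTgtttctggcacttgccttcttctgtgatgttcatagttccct
Il4ra, chr7:125552021-125552119: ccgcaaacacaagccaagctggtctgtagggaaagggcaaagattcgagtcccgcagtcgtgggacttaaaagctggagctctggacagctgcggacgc
Il15ra, chr2:11705043-11705289: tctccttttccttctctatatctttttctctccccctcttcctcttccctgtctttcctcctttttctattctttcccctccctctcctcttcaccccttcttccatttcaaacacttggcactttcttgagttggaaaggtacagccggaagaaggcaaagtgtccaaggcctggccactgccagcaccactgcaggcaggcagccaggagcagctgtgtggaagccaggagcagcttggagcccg

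A total of 5 motifs were searched on both strands in the 250 bases before the start of each entry. These were the STAT motif TTCNNNGAA and the STAT6-type motif, whose outer triplets lie 1 base farther apart, the ETS motif AGGAAGT, the forkhead motif TGTTTAC and the T-box motif GGTGTGA. Il2rb, without an entry, was not searched. Among the 6 members searched only Il7r held TTCNNNGAA, as TTCAGGGAA from 142 to 134 bases before the start, a match found in 7.02% of the 32851 windows searched. Il7r and Il2ra each held the ETS motif on the opposite strand, ending 43 and 29 bases before the start. On either strand it was found in 7.69% of all windows. The STAT6-type motif, the forkhead motif and the T-box motif (5.85%, 3.17% and 3.33% of all windows) had no match in the windows of these 6 members. A match is a description of the letters, and no binding was measured in these samples.

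The comparison of STAT3KO with WT donors sets T cells without STAT3 against T cells with it, in hosts that also differed in disease. The paper reports fatal acute graft-versus-host disease after WT T cells and only mild, transient disease after STAT3-deficient ones. Effects of STAT3 loss in the T cells and of the state of the host cannot be told apart in these libraries. In CD4 T cells, the beta chain and the IL-15 receptor alpha chain rose, the IL-4 receptor chain fell, and the other 4 members did not pass the test. Il2rb rose 1.88-fold (log2 fold change 0.91, SE 0.10, edgeR adjusted p = 0.00217) and Il15ra 1.46-fold (0.55, SE 0.12, adjusted p = 0.0233). Il4ra dropped to 0.476 times the WT level (log2 fold change -1.07, SE 0.16, adjusted p = 0.00711). Of the 12428 genes tested, 6.54% were called higher and 5.08% lower, against 2 and 1 of the 7 members. On the scale of CPM after TMM normalization, the groups did not overlap for all 7 members, 6 higher and 1 lower in STAT3KO, as for 53.5% of all genes tested, so the lack of overlap alone says little.

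Among the members that did not pass, Il7r came nearest (log2 fold change 0.60, SE 0.17, edgeR adjusted p = 0.0594). Its adjusted p lay between 0.00746 and 0.254 over the 17 alternatives of the processing and passed in 6 of them, among them DESeq2 (0.00746), the fit with the replicate number as a block (0.00784) and the fits without WT CD8 replicate 1 (0.0484) or 2 (0.0443). The interval of the Il2rg difference ran from -0.07 to 0.40 on the log2 scale (95%), that of Il2ra from -0.13 to 0.60 and that of Il9r from -0.38 to 1.86. A rise of the summed Il9r counts from 35 to 60 corresponds to a ratio of 1.65 with a counting interval from 1.07 to 2.58, which does not include the spread between libraries.

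The call of Il2rb was kept in all 17 alternatives (adjusted p at most 0.0250). That of Il4ra was lost without STAT3KO CD4 replicate 1 (adjusted p = 0.0569) or 2 (0.0574), with 9.57e-08 to 0.0574 over its alternatives and log2 fold changes between -1.27 and -0.88. That of Il15ra was lost when only the CD4 groups entered the fit (0.0789) and without WT CD4 replicate 1 (0.0791) or 2 (0.107) or STAT3KO CD4 replicate 1 (0.164) or 2 (0.0995), with 0.00474 to 0.164 over its alternatives.

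Some markers of other cells also differed between genotypes in CD4 T cells. The summed level of the 6 macrophage and monocyte markers was 53.5 and 59.4 CPM in WT and 92.2 and 128 CPM in STAT3KO CD4 libraries with none at 0, mostly through Itgam, which activated T cells also express (36.7 and 22.9 against 78.9 and 85.7 CPM). The summed B cell list was 107 and 96.1 against 149 and 170 CPM, almost all of it Cd22, which did not pass (edgeR adjusted p = 0.0946). Cd79b, a chain of the B cell receptor complex, rose from 0.892 and 1.27 to 2.06 and 2.46 CPM (log2 fold change 1.10, adjusted p = 0.0206), while Ms4a1 was at 0 to 3 counts. None of the 7 regulatory T cell markers was called (1 higher with the replicate block, which also called both B cell markers tested and 3 of the macrophage markers higher), and Foxp3, their master factor, was at 12.1 and 10.7 against 12.5 and 15.9 CPM. With the block, 16.5% of all genes tested were called higher in STAT3KO CD4 T cells. The part of such other cell types in the receptor differences was not tested.

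In CD8 T cells no member passed the test, and Il4ra and Il7r had the largest fold changes of those with counts above the limit of detection. Il4ra had a log2 fold change of -0.75 (SE 0.16, edgeR adjusted p = 0.0654) and Il7r of 0.55 (SE 0.17, adjusted p = 0.132). Il2rb had 0.21 (interval -0.02 to 0.44), Il15ra -0.17 (-0.44 to 0.10), Il2ra -0.28 (-0.64 to 0.08) and Il2rg -0.14 (-0.38 to 0.09). No member was called, where 1.34% of all genes tested were called higher and 0.732% lower. The groups did not overlap for 6 members, 2 higher and 4 lower, against 49.7% of all genes tested. Il9r was at or under 3 counts in all 4 CD8 libraries, and no fold is given.

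Without adjustment, the edgeR p-values of Il4ra and Il7r in CD8 T cells, 0.00200 and 0.0116, were below 0.05. DESeq2 called both (adjusted p = 0.00134 and 0.0278), and so did the fit with the replicate block (0.00294 and 0.0199), where the shares of all genes called were 10.3% and 7.89%. The shares of all genes called by DESeq2 and by the fits named next are not given here, so those calls cannot be read against them. The edgeR likelihood-ratio test (0.00235), the fit without a filter on low counts (0.0195) and the fit without WT CD4 replicate 1 (0.0493) called Il4ra alone. Over the 17 alternatives the adjusted p of Il4ra lay between 0.00134 and 0.341 and that of Il7r between 0.0199 and 0.431.

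**Figure D3:**
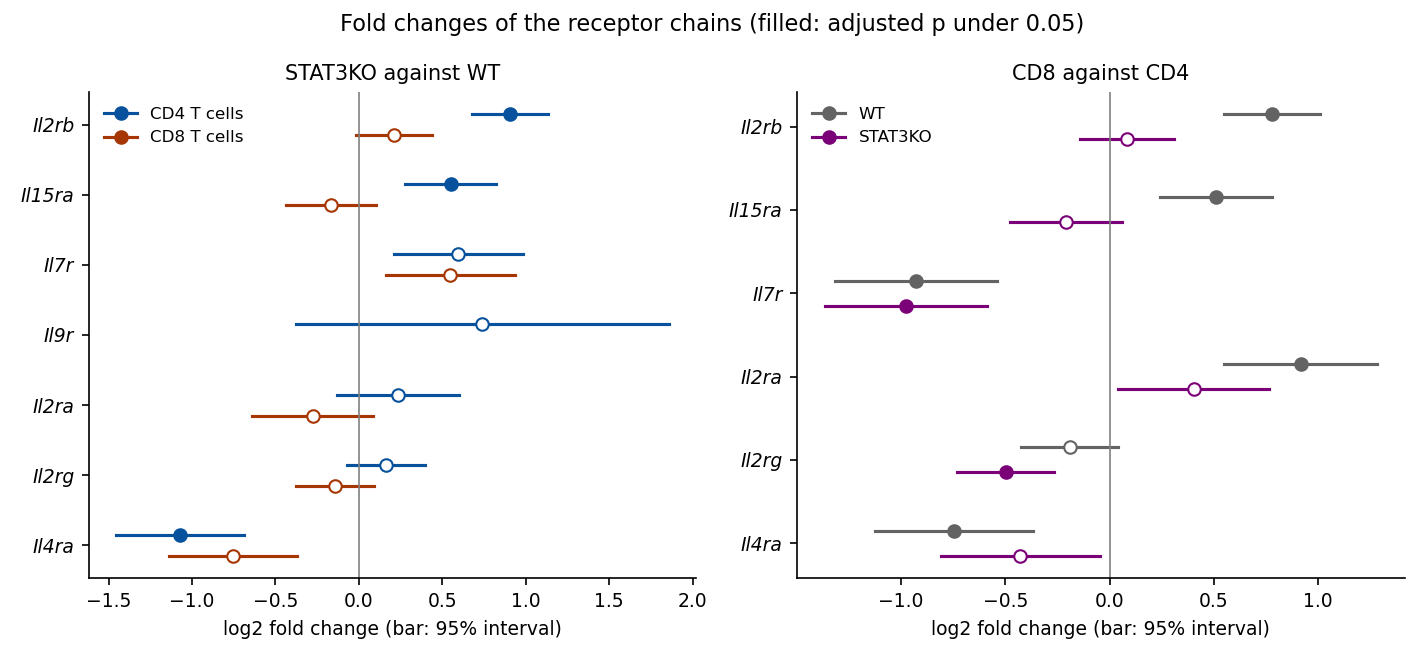
Log2 fold changes of the receptor chains (horizontal axes) for STAT3KO against WT in CD4 and CD8 T cells (left) and CD8 against CD4 in WT and STAT3KO T cells (right), with 95% intervals as bars and filled points at an edgeR adjusted p under 0.05. Il2rb and Il15ra were filled on the right side of 0 in CD4 T cells only, Il4ra was at -1.07 and -0.75, and Il9r is drawn in the CD4 comparison alone because its CD8 counts were at most 2.

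Whether the STAT3KO effect differed between CD8 and CD4 T cells was tested as an interaction over all 8 libraries. Among the members with counts above the limit of detection in both lineages, the beta chain and the IL-15 receptor alpha chain had the largest differences, with an effect lower in CD8 T cells by 0.70 for Il2rb (SE 0.14) and by 0.72 for Il15ra (SE 0.16) on the log2 scale. Their unadjusted p-values in the edgeR fit were 0.00114 and 0.00261, and their adjusted p-values 0.167 and 0.261. Il7r (difference -0.05, interval -0.59 to 0.50) and Il4ra (0.32, -0.22 to 0.85) had fold changes of the same sign in both lineages. For Il15ra, Il2ra and Il2rg the STAT3KO libraries stood above the WT libraries in CD4 and below them in CD8 T cells, and 2.79% of all genes likewise went opposite ways without overlap. The edgeR quasi-likelihood test called no member and 0% of the 12428 genes, of which 982 had an unadjusted p under 0.05. DESeq2 called 188 genes, with Il2rb among them (adjusted p = 0.00297, 0.00297 to 0.641 over its alternatives), and the likelihood-ratio test 137 genes without a member. The replicate block called 403 genes, with Il2rb (0.0196) and Il15ra (0.0374) among them.

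CD8 and CD4 T cells were next compared within each genotype. In WT, CD8 T cells had more message for the IL-2 and IL-15 receptor chains and less for the IL-7 and IL-4 receptor chains. Il2ra was 1.89-fold higher (log2 fold change 0.92, SE 0.16, edgeR adjusted p = 0.00507), Il2rb 1.72-fold higher (0.78, SE 0.10, adjusted p = 0.00130) and Il15ra 1.42-fold higher (0.51, SE 0.12, adjusted p = 0.0171). Il7r was at 0.525 times (log2 fold change -0.93, SE 0.17, adjusted p = 0.00616) and Il4ra at 0.596 times the CD4 level (-0.75, SE 0.16, adjusted p = 0.0144). Il2rg did not pass (-0.19, interval -0.43 to 0.04, adjusted p = 0.216). Apart from Il9r, 3 members were thus called higher and 2 lower, against 12.2% and 11.6% of all genes tested (20.6% and 21.5% with the replicate block). Il9r had 35 summed counts in CD4 and 1 in CD8 T cells, a ratio of 39.8 by CPM with a counting interval from 6.69 to 1617. Since it passed the filter through CD4 alone it had to differ, and its call is not counted.

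The calls of Il2ra, Il2rb and Il7r held in all 17 alternatives. Il15ra lost its call with the WT groups alone (0.0629) and without WT CD4 replicate 1 (0.0646) or 2 (0.0727) or WT CD8 replicate 1 (0.0734) or 2 (0.0881), with 0.00444 to 0.0881 in all. Il4ra lost it with the WT groups alone (0.0660) and without WT CD4 replicate 2 (0.0607) or WT CD8 replicate 1 (0.0814), with 0.000292 to 0.0814 in all.

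Markers of other cells differed between the lineages as well. In WT, 4 of 7 regulatory T cell markers were called lower in CD8 (Ikzf2, Izumo1r, Lrrc32 and Tnfrsf18), with a summed level of 2039 and 2420 CPM in CD4 and 1233 and 1473 CPM in CD8 libraries, while Foxp3 did not pass (log2 fold change 0.11, edgeR adjusted p = 0.809). Of the 6 macrophage and monocyte markers, 2 were called higher in CD8 (Cd68 and Itgam), and of the 4 natural killer cell markers also 2 (Gzma and Klre1). The first list summed to 53.5 and 59.4 CPM in CD4 and 152 and 178 CPM in CD8, and the second to 88.0 and 97.9 and to 1060 and 917 CPM. Of the 2 B cell markers tested Cd79b was higher and Cd22 lower. In STAT3KO the same 4 regulatory T cell markers, Cd68, Gzma and both B cell markers were called in the same directions. No marker of neutrophils, dendritic cells, mast cells or erythroid cells was called in either genotype without the block. With the block, WT had 5 regulatory T cell markers lower, and 3 macrophage and 3 natural killer cell markers higher, in CD8. In STAT3KO these counts were 5, 2 and 2, and 1 neutrophil and 1 dendritic cell marker were called lower. Of all genes tested, 12.2% were called higher and 11.6% lower in CD8 for WT (20.6% and 21.5% with the block). For STAT3KO these shares were 5.84% and 6.67% (14.4% and 15.3% with the block). The part of such other cells in the receptor differences between lineages was not tested.

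In STAT3KO T cells, the lineages differed by the gamma chain and the IL-7 receptor chain, both lower in CD8. Il7r was at 0.508 times the CD4 level (log2 fold change -0.98, SE 0.17, edgeR adjusted p = 0.0101) and Il2rg at 0.708 times (-0.50, SE 0.10, adjusted p = 0.0184). Il9r had 60 summed counts in CD4 and 3 in CD8 T cells, a ratio of 20.6 by CPM (counting interval 6.72 to 103), and as it entered the test through CD4 alone its call is not counted. No member was called higher. Il2ra had a log2 fold change of 0.40 (interval 0.04 to 0.77, adjusted p = 0.143), Il2rb of 0.08 (-0.14 to 0.31), Il15ra of -0.21 (-0.48 to 0.06) and Il4ra of -0.43 (-0.81 to -0.05, adjusted p = 0.138). Of all genes tested 5.84% were called higher and 6.67% lower. A fit with the replicate block gave calls for Il2ra (adjusted p = 0.0307) and Il4ra (0.0213) as well, and for 14.4% and 15.3% of all genes. The difference between the 2 lineage comparisons is the interaction above, in which no member passed.

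Calls between STAT3KO lineages depended on single libraries. Il2rg lost its call without STAT3KO CD4 replicate 1 (adjusted p = 0.0585) or 2 (0.125) or STAT3KO CD8 replicate 1 (0.108) or 2 (0.0676), with 9.27e-05 to 0.125 over its alternatives, and Il7r without STAT3KO CD4 replicate 1 (0.0702) or STAT3KO CD8 replicate 2 (0.0738), with 6.52e-07 to 0.0738. In GENCODE M21, 30.5% of the exon bases of Il2rg also belong to a same-strand gene model, Gm20489, and 9.51% of those of Il4ra to Gm44876 on the opposite strand. The counts were made per RefSeq gene, and whether reads from these stretches were split or dropped was not checked. The other 5 members share no exon base with another gene in GENCODE M21.

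The ligands of these receptors were mostly low in the T cells themselves. Of 6 common gamma chain cytokines, 4 were tested. Il15, a homeostatic cytokine that is usually presented by other cells, rose in both lineages, from 4 and 5 counts to 22 and 38 counts in CD4 (log2 fold change 2.67, SE 0.50, edgeR adjusted p = 0.0147) and from 8 and 5 to 34 and 53 counts in CD8 T cells (2.83, SE 0.47, adjusted p = 0.0316). Il21, a helper T cell cytokine, fell from 222 and 185 to 131 and 120 CPM in CD4 (-0.70, SE 0.12, adjusted p = 0.0107) and from 18.2 and 19.0 to 8.54 and 9.34 CPM in CD8 T cells (-1.06, SE 0.13, adjusted p = 0.0155). Il4 fell in CD4 T cells from 9.68 and 3.40 to 1.40 and 0.777 CPM (-2.58, SE 0.67, adjusted p = 0.0460). Il2 did not pass, at 5.29 and 3.59 against 3.05 and 2.92 CPM in CD4 T cells. Il7 had between 1 and 13 counts in a library and Il9 had none.

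The partner chains outside the 7 members numbered 3. Il21r, the private chain for IL-21, fell in CD4 T cells from 144 and 122 to 91.3 and 87.3 CPM (log2 fold change -0.58, SE 0.11, edgeR adjusted p = 0.0141), and it had -0.28 in CD8 T cells (adjusted p = 0.204). With the replicate block 2 of the 3 were called lower in either lineage. Crlf2, which joins Il7r to bind thymic stromal lymphopoietin, had -0.44 (adjusted p = 0.0503) and -0.49 (0.0811). Il13ra1, which joins Il4ra to bind IL-13, was at or below 0.631 CPM in every library.

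The counts of calls in the following gene lists stand against 6.54% of all genes higher and 5.08% lower for CD4 T cells, and 1.34% and 0.732% for CD8 T cells. With the replicate block these shares were 16.5% and 13.7%, and 10.3% and 7.89%. Of the 11 kinases, STAT factors and adaptors, 1 rose and 3 fell in CD4 and 1 rose in CD8 T cells (1 and 5, and 2 and 3, with the block). Stat5a, the factor that most of these receptors activate, fell from 185 and 209 to 81.3 and 77.3 CPM in CD4 T cells (log2 change -1.32 with SE 0.10, edgeR adjusted p = 0.000806) and went from 104 and 109 to 78.3 and 75.2 CPM in CD8 T cells without passing (-0.47, adjusted p = 0.0596). An exon of Stat5a overlaps Stat3 on the opposite strand over 72 bases, 1.01% of its exon bases. Jak3, the gamma chain kinase, fell in CD4 T cells (-0.93, SE 0.20, adjusted p = 0.0266) and had -0.95 in CD8 T cells (0.0635). Pik3cd, a catalytic subunit of the lipid kinase PI3K, fell in CD4 T cells (-0.46, adjusted p = 0.0216). Pik3r1, its regulatory subunit, rose in both (0.94 and 0.60, adjusted p = 0.00275 and 0.0429). Stat5b, Stat6 and Jak1 did not pass in either lineage.

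Among 7 feedback inhibitors, 3 fell and none rose in CD4 T cells. Socs3, which blocks receptors of the IL-6 family and is a known STAT3 target, fell from 369 and 367 to 98.6 and 136 CPM (log2 fold change -1.65, edgeR adjusted p = 0.00474). The CD8 libraries of WT donors had 163 and 206 CPM and those of STAT3KO donors 56.0 and 82.4 CPM, also a fall (-1.41, adjusted p = 0.0292). Socs1, which binds Jak kinases, fell in CD4 T cells (-0.87, adjusted p = 0.0347), as did the adaptor Sh2b3 (-0.65, adjusted p = 0.0231). Cish, an inhibitor induced by STAT5, was at 29.7 and 21.5 against 29.9 and 29.2 CPM in CD4 T cells and did not pass (adjusted p = 0.545).

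The 16 STAT5-linked target genes did not move one way. In CD4 T cells 2 rose and 4 fell, and in CD8 T cells 1 rose and 3 fell (2 and 6, and 1 and 8, with the replicate block). Ccnd2, a cyclin of the early cell cycle, rose in both (log2 fold change 0.88 and 0.82, edgeR adjusted p = 0.0117 and 0.0452), and Prdm1, a factor of terminal differentiation, rose in CD4 T cells (0.94, adjusted p = 0.0192). The kinase gene Pim2 fell in both (-0.76 and -0.62, adjusted p = 0.00636 and 0.0414), as did Gzmb, which encodes the killer protease granzyme B (-0.65 and -1.11, adjusted p = 0.0142 and 0.0119). Pim1 and the survival gene Bcl2 fell in CD4 T cells (-0.73 and -0.61, adjusted p = 0.0255 and 0.0161), and Osm in CD8 T cells (-1.19, adjusted p = 0.0401). The list had a median log2 fold change of -0.05 (CD4) and -0.30 (CD8), and all genes tested had 0.02 and -0.01.

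Of 12 transcription factors known to act on these receptor genes, 1 was called higher in CD4 and none in CD8 T cells, a share of 8.33% in CD4 that lies near that of all genes (4 and 2 higher with the replicate block). Eomes, a T-box factor that activates Il2rb, rose in CD4 T cells from 3.74 and 2.27 to 13.5 and 11.0 CPM (log2 fold change 2.03, SE 0.29, edgeR adjusted p = 0.00551), and it was at 45.6 and 37.9 in WT and 70.2 and 47.6 CPM in STAT3KO CD8 T cells (0.50, adjusted p = 0.310). The 4 CD4 libraries of Eomes all lay below the CD8 libraries. The part of Eomes in the Il2rb difference was not tested. Tbx21, the related factor T-bet, did not pass in CD4 T cells (0.98, SE 0.48, edgeR adjusted p = 0.233), at 112 and 46.7 against 183 and 132 CPM. It was higher in replicate 1 than in replicate 2 in every group (184 and 87.1 CPM in WT CD8, 198 and 125 CPM in STAT3KO CD8). The main fit does not take this shift into account, and a blocked value for Tbx21 is not given here. Foxo1 and Gfi1, factors with known roles at Il7r, had -0.16 and 0.12 in CD4 T cells (adjusted p = 0.494 and 0.876).

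Il7r is known to be high in naive and resting T cells. Of 6 other genes of such cells none rose, while 2 fell in CD4 and 1 in CD8 T cells (with the replicate block, 3 and 1). Tcf7 fell in both lineages, from 1452 and 1345 to 420 and 389 CPM in CD4 (log2 fold change -1.79, edgeR adjusted p = 0.00137) and from 285 and 386 to 141 and 168 CPM in CD8 T cells (-1.12, adjusted p = 0.0251). Lef1 fell in CD4 T cells (-0.54, adjusted p = 0.0481). Ccr7, S1pr1 and Klf2 did not pass in either, and Klf2 stood between 581 and 903 CPM in the replicates numbered 1 and between 271 and 331 CPM in those numbered 2. The part of naive or resting cells in the Il7r difference was not tested.

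**Figure D4:**
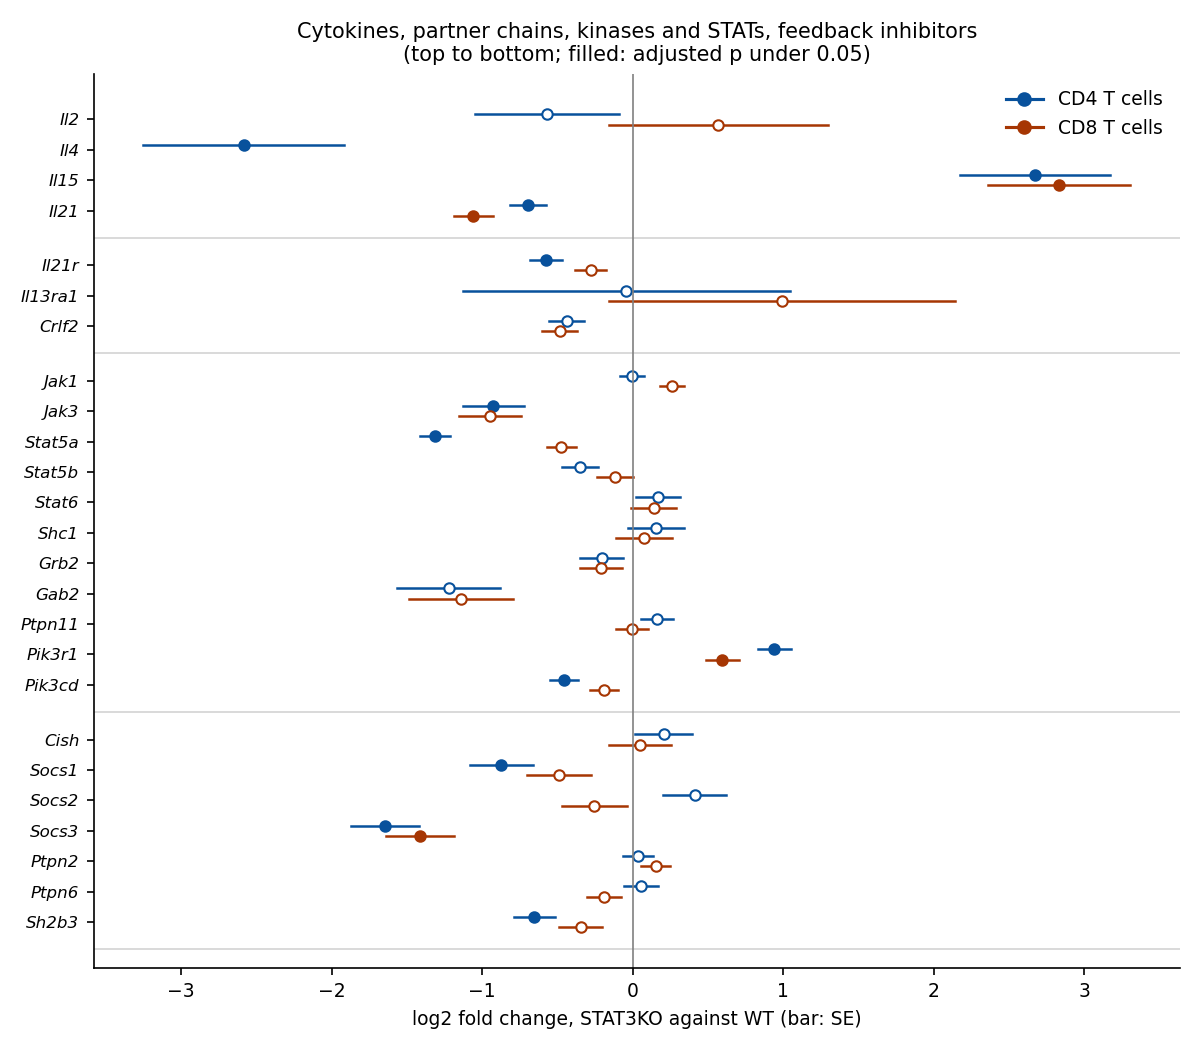
Log2 fold changes for STAT3KO against WT (horizontal axis) in CD4 and CD8 T cells, with SE as bars, for the tested cytokines, partner chains, kinases with STAT factors and adaptors, and feedback inhibitors, in 4 blocks from top to bottom, with filled points at an edgeR adjusted p under 0.05. Il15 (2.67 and 2.83) and Pik3r1 (0.94 and 0.60) were filled above 0 in both lineages and Il21 and Socs3 below 0 in both, and Il4 is drawn for CD4 T cells alone because it had at most 3 counts in a CD8 library.

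Genes with the most similar pattern to each member were named by Pearson's r of log2 CPM over the 8 libraries, which share groups and sequencing, as a description. They were Serpinb9 and Cat for Il2rb (r = 0.989 and 0.986), Plscr1 and Igfbp4 for Il4ra (0.992 and 0.991), and Trim21 and Zc3h11a for Il7r (both 0.979). Uba1 and 2610318N02Rik were nearest to Il2ra (0.991 and 0.990), Gsdmd and Pdcd1lg2 to Il2rg (0.973 and 0.971), and Car5b and Amer1 to Il15ra (0.951 and 0.934). For Il9r they were Gimap3 and Slc22a15 (both 0.994). Il9r had at most 2 counts in a CD8 library, so its pattern is mainly the step from CD4 to CD8. A high r with genes lower in CD8 was thus set in advance, and 9.26% of the 8845 genes compared with Il9r passed 0.8. Since 4 groups set most of the variation, an r over 0.8 was reached by 10.3% of the 8844 genes compared for Il2rb and by 9.89% for Il2ra, but by 0.814% for Il15ra.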

How the data were processed

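RNA was sequenced in 8 libraries, and the groups were taken from the cell type, genotype and title labels. Per the study's methods, single-end reads were aligned to mm10 with STAR and counted per RefSeq gene with HTSeq. The authors deposited raw counts per gene and RPKM per gene, with the same zeros in both tables. The growth and treatment labels describe an adipogenic cell line and were not used, the library kit differs between labels and methods, and whether counting used strand is not given in the sources used here. The column totals were 20171396 to 23282757 counts. The filter filterByExpr (minimum count 10) passed 12428 genes, all 7 members among them. Library sizes were adjusted by TMM (factors 0.982 to 1.03), and the counts were fitted in edgeR 4.0.16 (R 4.3.3) with a mean per group over all libraries and no covariate. Genes were called by the two-sided quasi-likelihood test at a Benjamini-Hochberg adjusted p under 0.05 over all genes tested. Standard errors and intervals were derived from its F statistic. RPKM values were used for levels between genes and ratios, CPM of cell type markers is by column total, and other CPM is TMM-scaled. Tried as alternatives were DESeq2 1.42.0 (Wald test), edgeR's likelihood-ratio test, RLE factors, total counts, no filter, only the groups compared, the replicate number as a block, limma 3.58.1 on log2(RPKM + 1) and log2(RPKM + 0.1), and each library left out in turn. No label calls a replicate number a batch, but the titles give the libraries numbered 1 and those numbered 2 separate runs of sample numbers, and same-numbered libraries deviated together from their group means (correlations across genes 0.424 to 0.671 over the 6 pairs of groups). The numbers were therefore taken to pair the libraries in an alternative fit, while the main fit has no block. Blocked results are given beside the calls of members and the counts of list genes that they change, but not for every single gene of the lists. The test was checked on simulated counts with known changes. These were drawn independently for each library, so the check does not cover the shared deviation of same-numbered libraries. Exon overlaps are from GENCODE M21 on GRCm38. Genes named were the members, Stat3, the sort markers, the called genes and main examples of lists of pathway genes, and the 2 genes most correlated with each member (mean log2 CPM 3 or more). The members and lists were chosen with earlier results of these data known. The single values of some list genes are not reported here.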

Additional observations from a re-analysis of the deposited data

Results flagged for a closer look

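With 2 libraries a group no test for single outlying libraries was made. For 3 members the STAT3KO libraries lay on opposite sides of the WT libraries in CD4 and CD8 T cells, without overlap in TMM-scaled CPM, as they did for 2.79% of all genes tested. In CD4 T cells the STAT3KO libraries were the higher ones, and in CD8 T cells the lower ones, for Il15ra, with a log2 difference of the effects (CD8 minus CD4) of -0.72, for Il2ra, with -0.51, and for Il2rg, with -0.31. The edgeR interaction test called none of them (adjusted p = 0.261, 0.630 and 0.678). In RPKM the CD4 libraries of Il2ra overlapped.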

How the results depend on the processing

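Of 84 recomputed counts of members called, 71 stayed within 1.5 times the reported count. Between lineages these counts include Il9r, although its filter through CD4 alone set its difference there in advance. Of 521 recomputed fold changes and differences of effects of single members (31 in the report), 476 kept their direction and their side of the threshold, 21 lost and 19 gained a call, and 5 changed sign. Of these, 1 was Il2rb between the STAT3KO lineages, at -0.00434 on the log2 scale without STAT3KO CD8 replicate 2 and up to 0.153 without another library. The other 4 were the difference of the Il7r effects, -0.228 to 0.176 when a library was left out. The count of members called for STAT3KO against WT in CD4 T cells (3) ranged from 1 to 4 when a library was left out. In CD8 T cells (0 called) it was 2 by DESeq2, 1 by the likelihood-ratio test, 1 without a filter, and 0 to 1 when a library was left out. For the difference of the effects (0 called) it was 1 by DESeq2, and between the STAT3KO lineages (3 called, Il9r included) it ranged from 1 to 3 without single libraries. The lone library left in a group was assumed to vary like the others. The shares of all genes called in these alternatives are not given beside these counts.

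With the replicate block, 2 members were called for STAT3KO against WT in CD8 T cells (Il4ra and Il7r) and 2 for the difference of the effects (Il2rb and Il15ra). Between the STAT3KO lineages 5 were called, Il9r included, whose call is not counted above because it passed the filter through CD4 alone. It also called Il7r in CD4 T cells (adjusted p = 0.00784), where all genes called went from 1444 to 3747. It changed no other call of a member. The causes of these changes were not tested.

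The median log2 fold change of all genes moved by less than 0.1 under the scalings. Il9r had no more than 35 counts a library, and its difference in CD4 T cells did not pass the test, which takes in the spread between libraries. With 2 libraries a group the precision is limited for all members.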
